A study of Mus musculus with 39 samples.

Results

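The heat shock proteins and their DnaJ co-chaperones were followed through 39 single liver cells that carried a Krt19 lineage label. A gene belonged to the set when its symbol began with Hsp and a letter or digit, or with Dnaja, Dnajb or Dnajc and a digit. Hspg2, which encodes the matrix proteoglycan perlecan, was left out. The rule took 50 of the 10061 gene symbols in the deposited table. No measured value entered it. By role the set held 3 HSP90 chaperones, 11 members of the HSP70 and HSP110 families, the 2 subunits of the mitochondrial chaperonin and 6 genes named Hspb. The other members were J proteins, with 3 of the Dnaja, 8 of the Dnajb and 17 of the Dnajc class.

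HSP70 proteins bind short hydrophobic stretches of unfolded clients in a cycle driven by ATP. J proteins bring them clients and start hydrolysis of the ATP, and nucleotide exchange factors, HSP110 proteins among them, reset the cycle. HSP90 acts later on a narrower set of clients, small heat shock proteins hold unfolded proteins without ATP, and each compartment of the cell has chaperones of its own. Heat shock factor drives the inducible members under cytosolic stress, while the unfolded protein response drives those of the endoplasmic reticulum (ER), the compartment that folds secreted proteins.

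The mice carried Krt19CreERT, an inducible Cre recombinase under control of a keratin gene of bile duct epithelium, together with the reporter Rosa26CAG-EGFP. A green cell is thus a Krt19+ cell or its descendant. Green cells of adult liver were sorted by flow cytometry and picked one at a time into lysis buffer for RNA sequencing. The labels placed all 39 cells in 1 group and named no strain, exact age, animal, inducer dose, sort or plate. Cells of 1 group are not replicates of a condition, so no test between cells was made, no p-value is given, and all differences describe these cells.

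Expression is given in CPM, counts per 1000000 as recovered from the deposited log2 values. A gene was called detected at 1 CPM, which stood for a median of 12.0 reads in the 37 cells whose depth could be read from the values (range 3.67 to 41.5). Depth is unknown in cells 38 and 39. A median of 2985 genes was detected per cell (range 1866 to 5298). Summed over all genes, CPM came to 351255 in the lowest cell and 3128330 in the highest, cell 24, so a level in that cell carries a large scaling factor.

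Clustering on 112 measured cell type markers, none of them a chaperone gene of the set, placed the cells in 4 groups. A duct-like group held 22 cells and was led by Spp1, a bile duct marker, with Tm4sf4, Cdh1 and Krt18. Hbegf, Atf3 and Cyr61, genes of the early stress and growth response, were also among its 10 leading genes. The 6 hepatocyte-like cells (numbers 1 to 4, 38 and 39) were led by Mup19, Apoa1 and Serpina3k. A group of 7 cells (5, 6, 7, 8, 10, 35 and 37) was led by fibroblast markers such as Dcn and Col1a2 together with the mesothelial markers Nkain4 and Lrrn4, and is given no cell type name. The leading genes of the last 4 cells (29, 32, 33 and 36) were the granulocyte genes Elane and Mpo with general leukocyte genes, and they are called the blood marker group. Summed CPM of the 35 hepatocyte markers had medians of 119219 in the hepatocyte-like cells (63240 to 249992) and 7688 in the duct-like cells (20.9 to 44238), and that of 18 bile duct markers had medians of 75.6 (3.01 to 372) and 27892 (8438 to 94268). Krt19 itself had a median of 123 CPM in the duct-like and 127 CPM in the mesothelial and fibroblast marker group, and was listed at 0 in all 6 hepatocyte-like cells and at 0.656 CPM or less in the blood marker group.

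A small core of chaperones was present in nearly every cell, and most of the set was not. Of the 50 members, 10 (20%) were detected in at least 20 cells, where 16.3% of all genes were. At 100 CPM in at least 20 cells there were 6 members (12%), where 2.12% of all genes were. Only Hspa8 was detected in all 39 cells, as were 0.706% of all genes. The members that reached 100 CPM in no cell were Dnajc25, Hspbap1, Hspb7 and Dnajb2, 4 of the 50 (8%), where the same held for 19% of all genes. For a member at 100 CPM in 0 of 39 cells the exact Clopper-Pearson 95% interval runs up to 9.03%, and such intervals cover the choice of cells only.

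**Figure D1:**
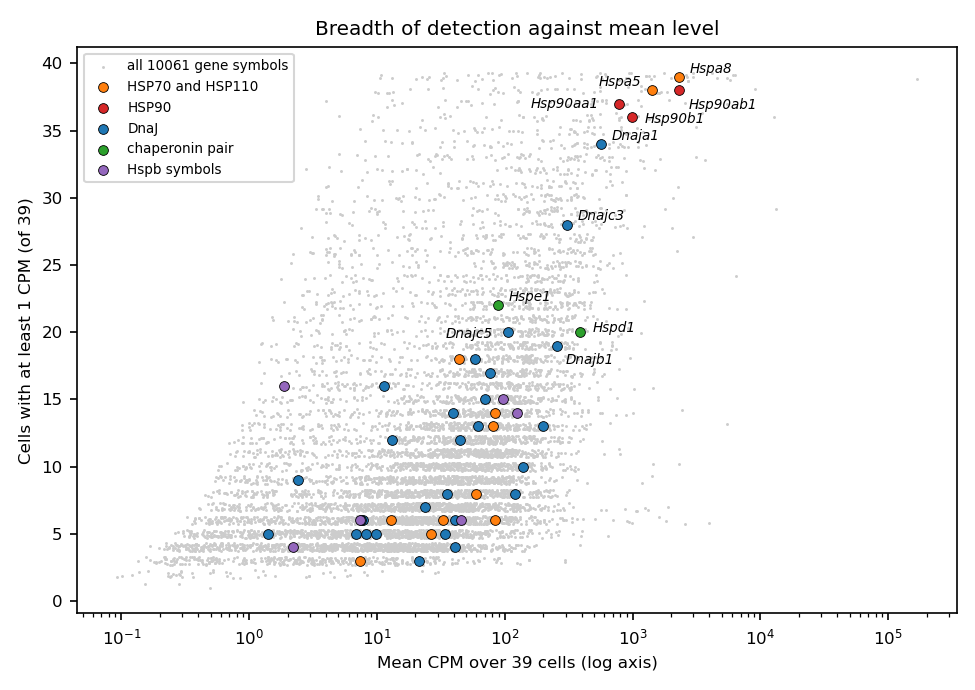
Number of cells with at least 1 CPM (vertical, of 39) against mean CPM over the 39 cells (horizontal, log axis) for all 10061 gene symbols (grey) and the 50 chaperone genes (coloured by role). The HSP90 genes, Hspa8, Hspa5 and Dnaja1 lie at the top right with 34 or more cells, and most J proteins lie below 20 cells.

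All 3 HSP90 genes belonged to the core. Hsp90ab1, the constitutive cytosolic HSP90, was detected in 38 cells, with a median of 1426 CPM and values from 0.712 to 19313 CPM. Hsp90aa1, the stress-inducible cytosolic form, was detected in 37 cells with a median of 408 CPM (0.322 to 4060). Hsp90b1, the HSP90 of the ER lumen, was detected in 36 cells with a median of 400 CPM and was listed at 0 in 2 cells. As deposited, the highest values of Hsp90ab1 and Hsp90b1 (8736 CPM) were both in cell 24, and that of Hsp90aa1 was in cell 15. After rescaling each cell to a sum of 1000000 the highest values were 9131 CPM in cell 26, 3145 CPM in cell 11 and 2949 CPM in cell 14. Cell 24 was highest for 6 members as deposited and, after rescaling, for Hspa1b only.

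On a scale per kb of transcript, which allows levels of different genes to be compared, Hsp90ab1 exceeded Hsp90aa1 in 29 of 39 cells, with a median ratio of 3.09 and a range from 0.00384 to 4793. Hsp90ab1 was thus the larger in most cells but not in all. The ratio was lowest in cell 16, and in cells 22 and 24 the ratio of Hsp90ab1 to Hsp90aa1 in CPM was 3681 and 3404. These extremes rest on low values, with Hsp90ab1 at 0.712 CPM in cell 16. Hsp90aa1 had 0.519 CPM in cell 22 and 5.67 CPM in cell 24. Of the 50-base stretches of Hsp90aa1 transcripts, 58.5% also occur in transcripts of another gene, mostly the processed copy Gm12346, so how its reads were divided is uncertain. For Hsp90ab1 the share was 4.49%.

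Among the HSP70 genes the constitutive forms dominated. Hspa8, the cytosolic HSC70, had a median of 1240 CPM (1.37 to 13430) and lay at 100 CPM or more in 34 cells. Hspa5, the ER form also called BiP, was detected in 38 cells with a median of 937 CPM (0.589 to 5841). Per kb the mean levels were 968 for Hspa8 and 547 for Hspa5, and Hspa8 exceeded Hspa5 in 23 of 39 cells. Neither was uniformly the larger. In Hspa8, 74.8% of 50-base stretches are shared with other genes, chiefly Gm15459, and the same doubt applies to its reads.

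The remaining HSP70 and HSP110 genes were found in few cells or at low levels. Hspa9, the mitochondrial HSP70, was found in 18 cells, 3 of them at 100 CPM. Hspa2, a form best known from the testis, was detected in 14 cells, and cell 13 with 1533 CPM held 46.8% of its summed CPM. Hspa4, an HSP110 exchange factor, was detected in 13 cells, and Hsph1, the stress-inducible HSP110, in 8. Hspa4l, also of the HSP110 family, was detected in 3 cells, which with Dnajb12 was the fewest of the set. Dnajc24 and Hspbap1 followed with 4 cells each, and 6 members were tied at 5 cells.

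The mitochondrial chaperonin is built of a large ring subunit, Hspd1 (HSP60), and a lid, Hspe1 (HSP10), whose genes lie head to head. Hspe1 was detected in 22 cells with a median of 19.2 CPM and a highest value of 666 CPM in cell 3. Hspd1 was detected in 20 cells with a median of 1.26 CPM and a highest value of 5905 CPM in cell 24, or after rescaling 3110 CPM in cell 12. Both were detected in 16 cells, Hspd1 alone in 4, Hspe1 alone in 6 and neither in 13. At 100 CPM both were present in 4 cells, Hspd1 alone in 7 and Hspe1 alone in 8, so a high level of the 1 subunit was more often than not seen without a high level of the other. Spearman's rho between them was 0.33 over 39 cells and 0.18 over the 22 duct-like cells, as a description without a test. Each shares 44.8% of its 50-base stretches with other genes, most of them processed copies.

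The promoter the chaperonin genes share is shown because it holds the binding motif of heat shock factor. In RefSeq windows of 300 bases (250 before and 50 after the transcription start, build GRCm38.p6), 39 of the 50 members had an entry. A heat shock element of 3 units was searched as GAANNTTCNNGAA or TTCNNGAANNTTC, which together cover both strands. It was found in the windows of 4 of the 39 members, Dnajb6, Hspd1, Hspe1 and Hsph1 (10.3%), and in those of 0.662% of the 27025 symbols in the table. A shorter form of 2 units, GAANNTTC or TTCNNGAA, which lies inside the longer one, was found in 11 of the 39 (28.2%) and in 17.0% of all symbols. The lines below show Hspe1, Hspd1 and Dnajb6, whose match lies wholly before the start, while that of Hsph1 lies after it and is not printed. They give 30 bases on either side of the element on the strand of each gene, with the element in capitals. In Hspd1 and Hspe1 the 78 bases printed are the reverse complement of each other, and in both the capitals hold 2 overlapping matches.
Hspe1: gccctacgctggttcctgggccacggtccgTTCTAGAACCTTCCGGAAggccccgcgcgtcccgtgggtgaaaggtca
Hspd1: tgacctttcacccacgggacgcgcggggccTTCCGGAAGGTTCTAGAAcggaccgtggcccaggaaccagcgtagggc
Dnajb6: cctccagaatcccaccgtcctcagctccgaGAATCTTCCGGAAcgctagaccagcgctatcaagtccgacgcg

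The element lies 89 to 72 bases before the start of Hspe1 and 144 to 127 bases before that of Hspd1. A match in letters describes the sequence and is not shown here to be a bound site. Dnajb6, a J protein known for suppressing protein aggregation, was found in 13 cells, 8 of them at 100 CPM, and cell 24 held its highest value of 3449 CPM, or after rescaling cell 9 with 2293 CPM. Hsph1 reached 100 CPM in 3 cells.

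J proteins were the largest class of the set but gave few of its abundant genes. Dnaja1, a main cytosolic partner of HSP70, was detected in 34 cells with a median of 156 CPM (0 to 3357). Dnajc3, which acts in the ER lumen with BiP, was detected in 28 cells with a median of 63.1 CPM and a highest value of 2032 CPM in cell 26. Dnajc5, the cysteine string protein of secretory vesicles, was detected in 20 cells at a median of 1.01 CPM. Dnajb1, the stress-inducible HSP40, was next with 19 cells and a median of 0.903 CPM. Its median over those 19 cells was 31.4 CPM, and it ranged up to 3849 CPM in cell 22.

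Several J proteins owed most of their signal to a single cell. Cell 27 held 99.2% of the summed CPM of Dnajb12, and cell 16 held 82.4% of that of Dnajb4. Cell 16 was the cell in which Dnajb4, with 4483 CPM, was the highest member of the whole set, while Hsp90ab1 had 0.712 CPM and Hspa8 1.37 CPM there. Dnajc2, a J protein of the ribosome, had 70.1% of its sum in cell 11, and Dnajc7, a partner of both HSP70 and HSP90, had 69.9% in cell 22. The ER members Dnajc1 and Dnajb9, the latter induced by the unfolded protein response, were detected in 17 and 15 cells.

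Among the genes named Hspb only Hspb1, Hspb2, Hspb7 and Hspb8 encode small heat shock proteins, while Hspbp1 is an exchange factor of HSP70 and Hspbap1 binds Hspb1. Hspb8 was detected in 15 cells and Hspb1, known as HSP25, in 14. Hspb1 reached 2559 CPM in cell 17, which was 52.6% of its summed CPM. Hspb7 was detected in 16 cells but never above 13.7 CPM. Hspb1 shares 51.6% of its 50-base stretches with the copy Hsp25-ps1, so its reads may have been divided with it.

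The number of members detected differed between cells. A median of 18 of the 50 members was detected per cell (range 7 to 32), and 9 at 100 CPM (range 2 to 17). Members were a median of 0.562% of the genes detected in a cell and 0.925% of those at 100 CPM. The set holds 50 of the 10061 symbols. Spearman's rho of members detected with genes detected was 0.77 over the 39 cells, whose depths are unequal. Summed over the set, members took a median of 0.992% of a cell's total (range 0.202% to 2.70%). Hspa8, Hsp90ab1, Hspa5, Hsp90b1, Hsp90aa1 and Dnaja1 together made up a median of 76.4% of that sum. By CPM, which is not scaled by transcript length and favours long transcripts, Hspa8 was the highest member in 18 cells, Hspa5 in 9 and Hsp90ab1 in 4, and in each of 8 cells another gene was.

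**Figure D2:**
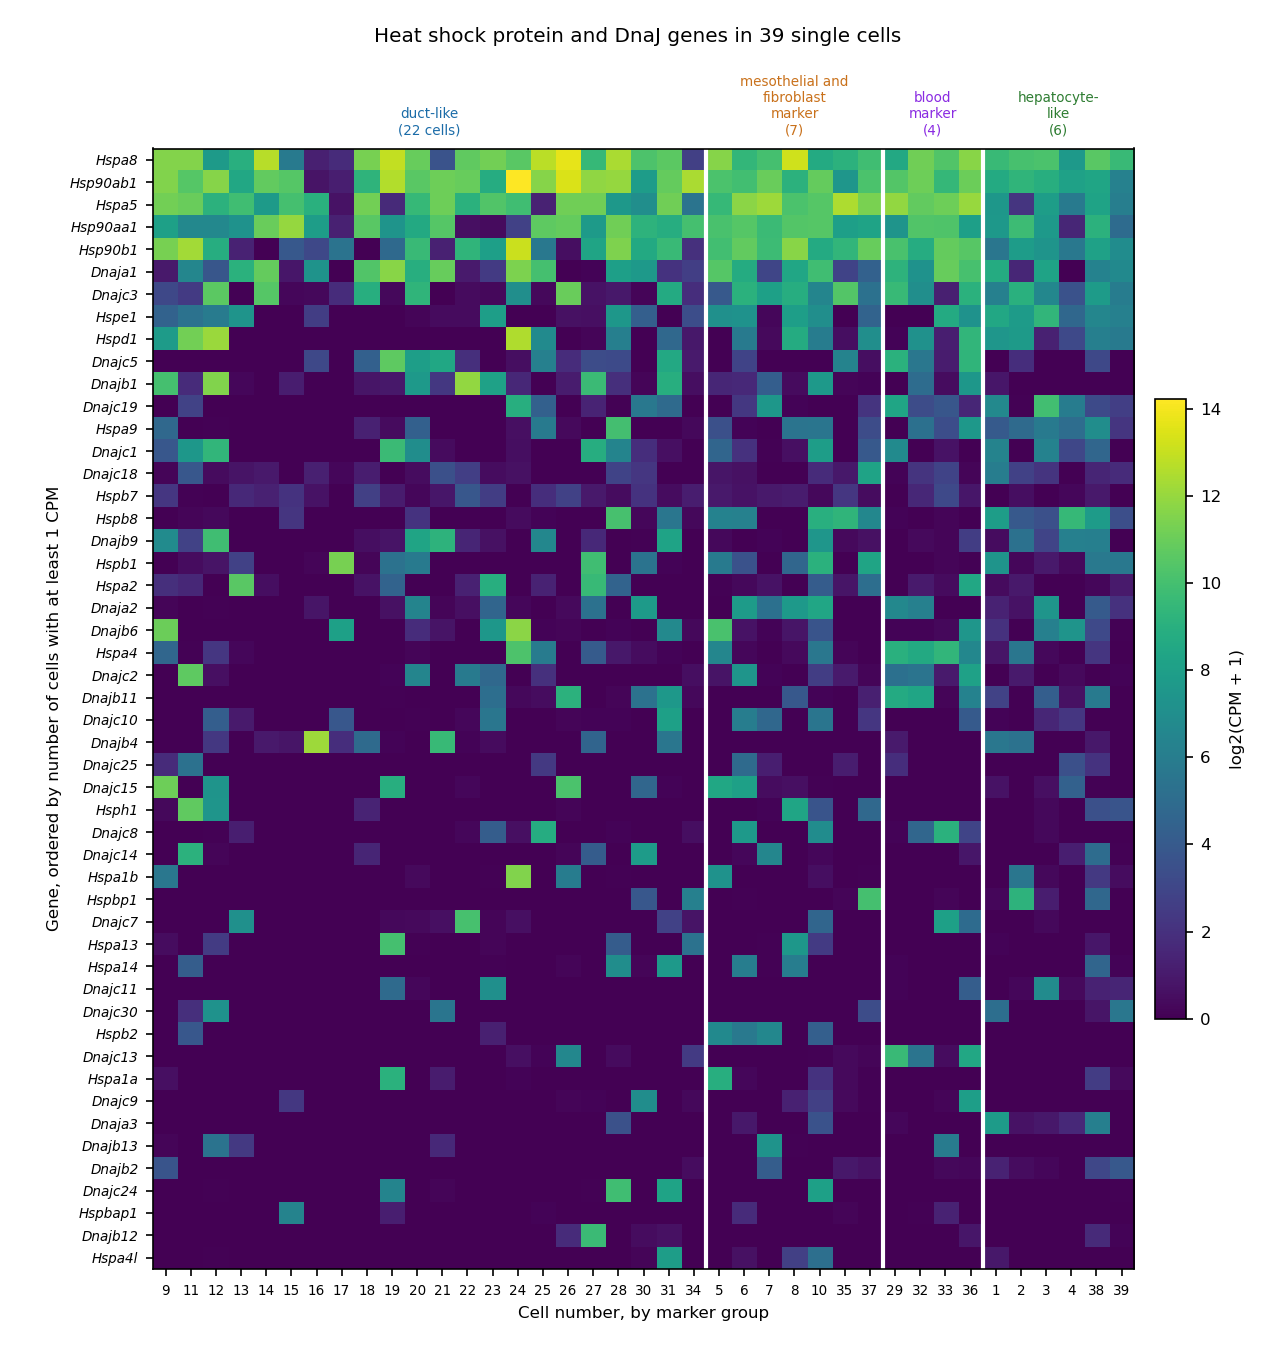
Level of each of the 50 members (rows, ordered by number of cells with at least 1 CPM) in each of the 39 cells (columns, ordered by marker group) as log2(CPM + 1). The rows of Hspa8, Hsp90ab1, Hspa5, Hsp90aa1 and Hsp90b1 are filled across nearly all columns, and most other rows show isolated cells.

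Pairs of widely detected members had mostly low rank correlations across cells. Among the 45 pairs of the 10 widely detected members the median Spearman's rho was 0.13 over 39 cells, with a range from -0.35 (Dnajc5 with Hspe1) to 0.58 (Hsp90b1 with Hspd1). In the 22 duct-like cells Hsp90b1 and Hspd1 had 0.65, the highest pair there too. The 15 pairs among Hspa8, Hsp90ab1, Hspa5, Hsp90b1, Hsp90aa1 and Dnaja1 had a median of 0.15 over 39 cells (-0.12 to 0.41) and of 0.10 over the duct-like cells (-0.40 to 0.40). Hspa8 with its partner Dnaja1 had 0.26, Hsp90aa1 with Hsp90ab1 0.29 and Dnaja1 with Dnajb1 -0.11. These values describe 39 libraries of unequal depth that share a scaling by cell.

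The inducible HSP70 genes were at or near 0 in most cells. Hspa1a was detected in 5 cells and Hspa1b in 6. Their transcripts share 58.8% (of Hspa1a) and 62.3% (of Hspa1b) of their 50-base stretches, so the pair is best read as a sum. The sum reached 1 CPM in 9 cells and 100 CPM in 3. Cell 5 had 628 CPM, with 479 from Hspa1a and 149 from Hspa1b. Cell 19 had 549 CPM, all from Hspa1a, and cell 24 had 2989 CPM, nearly all from Hspa1b. After rescaling each cell to a sum of 1000000, cell 24 still had 955 CPM.

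Other inducible chaperones were not uniformly high in those cells. Dnajb1 had 1.90 CPM in cell 5, 0.903 CPM in cell 19 and 1.99 CPM in cell 24, and Hsph1 was listed at 0 in all 3. Dnaja1 was high in each, with 1455, 3357 and 2795 CPM. Of 20 immediate early genes, which respond to handling and growth signals, 8 reached 100 CPM in cell 5, 15 in cell 19 and 6 in cell 24, while the median over all 39 cells was 11 (range 0 to 17). The mean log2 level of the 12 members listed as stress-inducible had a Spearman's rho of -0.13 with that of the immediate early genes and of 0.58 with the number of genes detected, over 39 cells.

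The marker groups were then compared with the duct-like cells, which are the second group in all 3 comparisons, so these share cells. A member was called different when the means of log2(CPM + 1) differed by 2 or more, a 4-fold difference on that scale, which understates folds of genes near 0. In the mesothelial and fibroblast marker group 8 members (16%) were called higher, where 12.7% of all genes were, and 0 lower, where 2.96% were. In the blood marker group 13 members (26%) were higher, where 18.3% of all genes were, and 0 lower, where 5.39% were. In the hepatocyte-like cells 8 members (16%) were higher, where 13.4% of all genes were, and 2 (4%) were lower, where 7.54% were. Nothing is read from these shares as particular to the chaperones. The median member differed by 0.56, 0.05 and 0.01, where the median gene differed by 0.11, 0 and -0.20. Among the 27 members detected in at least 10 cells the medians were 0.79, 1.29 and 0.62. Those of the 4812 genes detected as widely were 0.28, 0.27 and -0.39.

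**Figure D3:**
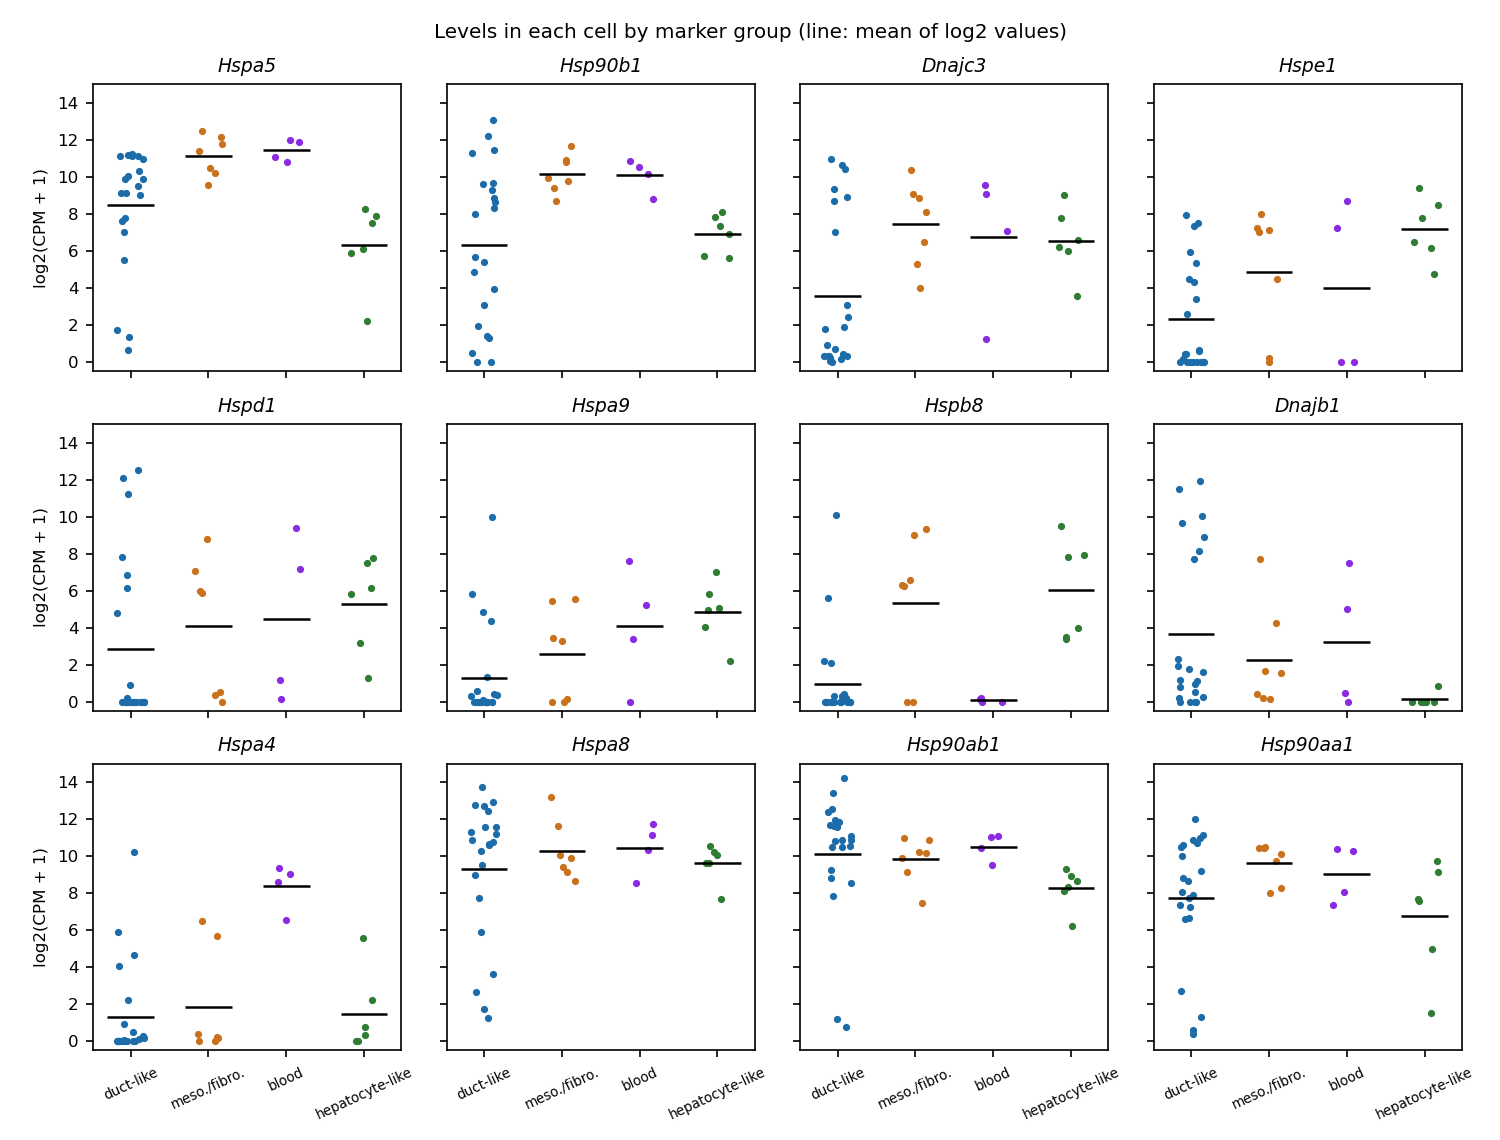
Level of 12 members in every cell (points, log2(CPM + 1)), in columns for the marker groups, with a line at each group's mean of log2 values. Hspa4 separates the blood marker cells from nearly all others, Hspe1 and Hspb8 are present in all 6 hepatocyte-like cells, and Dnajb1 reaches 1 CPM in none of them.

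Of the 9 members of the ER, 3 were called higher and 0 lower in the mesothelial and fibroblast marker group, where 12.7% and 2.96% of all genes were. These 3 were Hspa5, Hsp90b1 and Dnajc3, while Dnajb9 and Dnajb11 had log2 differences of -1.31 and -0.54. Hspa5 had 753, 3489, 4583, 1174, 1419, 5841 and 2664 CPM in cells 5, 6, 7, 8, 10, 35 and 37, and a median of 835 CPM (0.589 to 2387) in the duct-like cells. All 7 lay within or above the range of the duct-like cells, and the groups overlapped. The difference was 2.67 on the log2 scale. Hsp90b1 had 985, 1805, 869, 3285, 416, 673 and 1969 CPM in the same cells, in order, and a duct-like median of 155 CPM with a range from 0 to 8736. The duct-like cells held both the lowest and the highest values, and the difference was 3.87. Dnajc3 had 15.0, 547, 272, 472, 88.8, 1351 and 38.2 CPM, with a duct-like median of 1.71 CPM (0 to 2032). It was detected in 7 of 7 cells and in 11 of 22 duct-like cells, and the difference was 3.87.

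Hspa5, Hsp90b1 and Dnajc3 were also the members whose promoter windows held the ER stress element, and these are printed for that reason. The element was searched as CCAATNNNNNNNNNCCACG or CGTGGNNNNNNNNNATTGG, covering both strands. It was found in 3 of the 39 members with a window (7.69%) and in 0.137% of all symbols in the table. The lines give the element in capitals on the strand of each gene, with 30 bases to either side, from RefSeq on GRCm38.p6. In Hsp90b1 it occurs once on each strand.
Hspa5: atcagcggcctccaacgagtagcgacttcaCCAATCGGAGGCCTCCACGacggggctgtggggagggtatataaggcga
Dnajc3: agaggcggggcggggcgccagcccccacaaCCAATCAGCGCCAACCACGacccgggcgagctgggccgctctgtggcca
Hsp90b1: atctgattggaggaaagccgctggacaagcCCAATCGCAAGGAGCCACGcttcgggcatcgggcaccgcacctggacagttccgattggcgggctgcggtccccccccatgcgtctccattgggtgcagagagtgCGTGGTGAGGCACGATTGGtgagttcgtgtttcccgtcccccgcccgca

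The 3 genes with this element were each higher in the mesothelial and fibroblast marker group and in the blood marker group, with log2 differences of 2.67, 3.87 and 3.87 in the former and 2.98, 3.78 and 3.15 in the latter for Hspa5, Hsp90b1 and Dnajc3. In the hepatocyte-like cells they parted, with -2.17, 0.62 and 2.95. The match in letters is not shown here to be a bound site, and whether it bears on these levels was not tested. Over the 9 ER members, 4 were called higher and 0 lower in the blood marker group, where 18.3% and 5.39% of all genes were, and Dnajb9 and Hspa13 had -1.83 and -1.03 there. In the hepatocyte-like cells 1 of the 9 was higher and 1 lower, where 13.4% and 7.54% of all genes were. The 9 ER members took a median of 51.3% of the set's summed CPM in the mesothelial and fibroblast marker group (15.7% to 81.9%), 37.0% in the blood marker group (28.5% to 56.4%), 18.7% in the duct-like cells (1.10% to 42.2%) and 14.3% in the hepatocyte-like cells (10.7% to 22.6%).

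For the mesothelial and fibroblast marker group, Hspa5 and Hsp90b1 did not reach the 4-fold mark against duct-like cells within cells 5 to 13. Cells 5 to 13 held 5 cells of that group and 4 duct-like cells, and there the ER share had medians of 28.1% and 28.3%. Within them Hspa5 differed by 0.53 and Hsp90b1 by 1.73, both under the 4-fold mark, and Hspe1 by 0.14, while Dnajc3 differed by 3.26. In those cells 9 members were higher, where 18.1% of all genes were, and 7 lower, where 9.65% were. The labels do not say what a cell's number stands for, and its part in the result was not tested. Cells 29 to 37 held 2 cells of the mesothelial and fibroblast marker group, 3 duct-like cells and the 4 blood marker cells. The 2 cells had 2664 and 5841 CPM of Hspa5, and 673 and 1969 CPM of Hsp90b1. The 3 duct-like cells had 44.2 to 2275 CPM and 2.92 to 797 CPM. The ER share was 51.3% and 81.9% in the 2 cells and 1.36% to 42.2% in the 3. Between the blood marker and duct-like cells of this run, Hsp90b1 differed by 3.34, Hspa4 by 8.20 and Dnaja1 by 5.21. In that comparison 14 members were higher, where 18.9% of all genes were, and 6 lower, where 13% were.

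**Figure D4:**
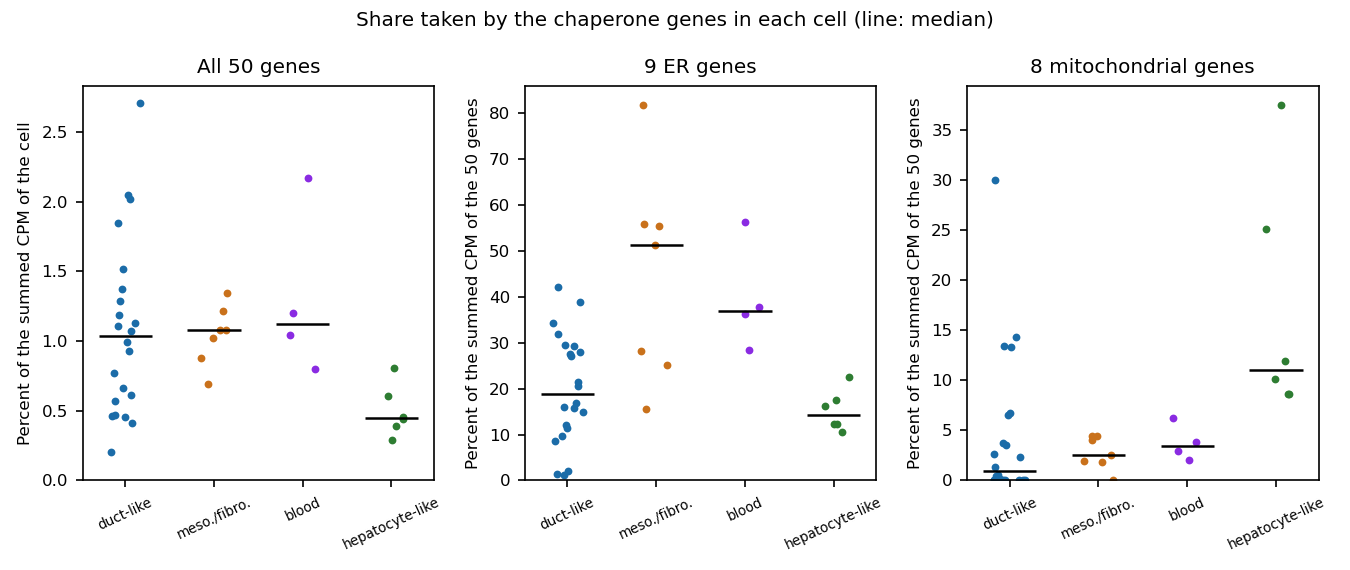
Share of each cell's total taken by all 50 members (left, percent), and share of the members' summed CPM taken by the 9 ER members (middle) and the 8 mitochondrial members (right), in columns for the marker groups, with points for cells and lines at medians. The ER share is highest in the mesothelial and fibroblast marker group, up to 81.9%, and the mitochondrial share is 8.59% or more in every hepatocyte-like cell.

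Of the 4 small heat shock genes, Hspb8, Hspb2 and Hspb1 were called higher in the mesothelial and fibroblast marker group, where 12.7% of all genes were. Hspb7 differed by -0.36. Hspb8, which works with the co-chaperone Bag3 in the removal of misfolded proteins, had 79.2, 74.1, 0, 0, 510, 634 and 95.7 CPM in its 7 cells. It was detected in 5 of them and in 4 of 22 duct-like cells, and the difference was 4.38. Hspb2, a partner of other small heat shock proteins in muscle, reached 18.7 to 106 CPM in cells 5, 6, 7 and 10 and was under 1 CPM in the other 3. It reached 1 CPM in 2 duct-like cells and in no cell of the other groups, and the difference was 3.11. In its longest GENCODE transcript (773 bases) 28.0% of 50-base stretches are shared with Cryab, its neighbour in the genome. Cryab differed by 4.44 in the same direction. The transcript measured here has 552 bases, and its shared stretches were not counted, so the 2 genes' reads may not be fully told apart. Hspb1 differed by 2.58, and by 1.81 without cell 10.

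Dnaja2, a cytosolic J protein, completed the members higher in this group by 2.93, from 4 of 7 cells between 37.4 and 337 CPM, as did Hspe1 by 2.55. Among cells 5 to 13 the differences of Hspb8, Hspb2, Hspb1 and Dnaja2 were 4.20, 3.70, 3.65 and 5.77.

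Hspa4 set the blood marker cells apart from most others. These 4 cells form a group in the Ward tree, whereas average linkage put 2 of them in a cluster of 19 cells with 17 duct-like cells and the other 2 in a cluster of 5 cells. The HSP110 exchange factor had 533, 394, 652 and 94.6 CPM in cells 29, 32, 33 and 36, and a median of 0.0327 CPM in the duct-like cells. Outside the 4 cells only cell 24, with 1215 CPM, was higher than any of them, and after rescaling cell 29 was the highest of all with 498 CPM. As deposited the next value was 90.6 CPM in cell 5. The log2 difference of 7.07 stayed between 6.76 and 7.68 when any single cell was left out. 

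Other members higher in the blood marker group came from several compartments. Dnajc13, an endosomal J protein, had 807, 43.0, 0.377 and 373 CPM and was under 1 CPM in all but 2 of the duct-like cells, a difference of 5.57. Dnajb11, an ER partner of BiP, had 409, 336, 0.126 and 78.6 CPM, a difference of 4.59 that was 1.48 among cells 29 to 37. Dnaja1 had 583, 152, 1934 and 1084 CPM, a difference of 3.59. Dnajc5, with 544, 48.5, 1.09 and 643 CPM, was detected in all 4 and differed by 3.50. The remaining members called higher were Hsp90b1, Dnajc2 (3.55), Dnajc8 (3.49), Dnajc3, Hspa5, Dnajc19 (2.98), Hspa9 (2.79) and Dnajc7 (2.24). Of these, Dnajc19 differed by 1.61 without cell 29, Hspa9 by 1.60 without cell 36, and Dnajc8 and Dnajc7 by 1.86 and 0.63 without cell 33, all under the 4-fold mark.

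These 4 cells also showed more genes than the duct-like cells, with medians of 3428 and 2756 genes at 1 CPM and of 1265 and 887 at 100 CPM. The mesothelial and fibroblast marker group had 3089 and 1213. The part of these depths in the counts of members called was not tested. The small heat shock genes Hspb1, Hspb2 and Hspb8 reached 1 CPM in none of the 4 blood marker cells, and Hspb7 did in 2. In the duct-like cells Hspb1, Hspb2, Hspb8 and Hspb7 reached 1 CPM in 6, 2, 4 and 12 of 22.

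In the hepatocyte-like cells the mitochondrial HSP70 Hspa9 and both chaperonin subunits were detected in 6 of 6 cells. Hspe1 had 364, 221, 666, 25.9, 90.4 and 71.2 CPM in cells 1, 2, 3, 4, 38 and 39, and a median of 0.423 CPM (0 to 248) in the duct-like cells, where 9 of 22 reached 1 CPM. All 6 were above the duct-like median, with overlap at the top, and the difference was 4.86. Hspd1 had 180, 217, 1.46, 7.91, 68.5 and 54.4 CPM, and its median in the duct-like cells was 0, although 5 of these reached 100 CPM. The difference was 2.43, and 1.93 without cell 2. Hspa9 had 15.2, 29.9, 55.6, 32.5, 127 and 3.54 CPM and was detected in 5 of 22 duct-like cells, a difference of 3.56.

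Most other mitochondrial members differed in the same direction, but Dnajc15 differed by -0.97. Dnajc11 and Dnajc30 differed by 1.17 and 1.26, under the 4-fold mark. Dnajc19, a J protein of the protein import motor, differed by 3.47, with cell 3 at 983 CPM and cell 2 at 0.0416 CPM. Dnaja3, the mitochondrial Dnaja protein, differed by 2.70 from 3 of 6 cells, and by 1.71 without cell 1. The 8 mitochondrial members took a median of 11.1% of the set's sum in the hepatocyte-like cells (8.59% to 37.5%) and 0.952% in the duct-like cells (0% to 30.0%). Of these 8 genes 5 were called higher and 0 lower, where 13.4% and 7.54% of all genes were.

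Hspb8 showed the largest difference in the hepatocyte-like cells, 5.04. It had 241, 14.6, 10.2, 730, 224 and 9.57 CPM in the 6 cells, and of the duct-like cells only number 28 held 100 CPM or more. Dnajc3 differed by 2.95, and Hspbp1 by 2.10 on the strength of 3 cells (0.77 without cell 2). Dnajb1 was lower. It reached 1 CPM in 0 of 6 hepatocyte-like and 13 of 22 duct-like cells, a difference of -3.52 that lay between -3.69 and -3.12 with any cell left out.

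Hspa5 was also called lower in the hepatocyte-like cells, but less firmly. It had 183, 3.61, 238, 58.1, 304 and 67.6 CPM there, all below the duct-like median of 835 CPM, and 3 duct-like cells were below all 6. The difference of -2.17 became -1.39 when each cell was rescaled to a sum of 1000000 and -1.35 without cell 2, both under the 4-fold mark. The set as a whole took 0.449% of the total in these cells (0.292% to 0.803%) and 1.03% in the duct-like cells (0.202% to 2.70%).

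The hepatocyte-like libraries stood apart in other ways. The share of Rn45s, a ribosomal RNA precursor, in the total was 0.383% to 1.22% in these cells and 8.42% to 31.2% in the 33 others. Of the 20 immediate early genes a median of 1 reached 100 CPM in them, where 13.5 did in the duct-like cells. Rorb had 5797 to 95636 CPM in them and 19.5 to 133 CPM in the 33 others. Lars2 had 0 to 30.9 CPM in them and 4468 to 40183 CPM in the others. Cell numbers 1 to 4, 38 and 39 include no cell of another group. Group, cell number and these library traits thus cannot be told apart here. Whether they bear on the members called higher or lower was not tested. Set against all 33 other cells, 5 members were higher in the hepatocyte-like cells, where 11.7% of all genes were, and 3 lower, where 7.54% were. The lower ones were Dnajb1 (-3.17), Hspa5 (-3.10) and Dnajc5 (-2.08). Hspd1, Hspbp1 and Dnajc3, called higher against the duct-like cells, differed by 1.97, 1.93 and 1.75 here, under the 4-fold mark.

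Partners of the set outside the symbol rule were examined as lists. Of 22 measured HSP70 and HSP90 co-chaperones 3 were detected in at least 20 cells. Ptges3, the HSP90 co-chaperone p23, was the most common with 36 cells and a median of 60.3 CPM, and the others were Cdc37, which brings kinases to HSP90, in 23 cells (median 2.50 CPM) and St13, the HSP70-interacting protein, in 22 (median 2.82 CPM). In the blood marker group 8 of the 22 were called higher and 1 lower, where 18.3% and 5.39% of all genes were. In the mesothelial and fibroblast marker group 1 was higher and 0 lower, where 12.7% and 2.96% of all genes were, and in the hepatocyte-like cells 3 and 2, where 13.4% and 7.54% were. Ptges3 was among the latter, with a log2 difference of -2.27.

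Genes of ER folding and of the unfolded protein response outside the set, taken as 1 list, were among the genes called higher in each of the 3 groups. Of 19 measured, 11 were higher and 1 lower in the mesothelial and fibroblast marker group, 13 and 0 in the blood marker group, and 7 and 0 in the hepatocyte-like cells. Of all genes 12.7%, 18.3% and 13.4% were higher in these comparisons, in order, and 2.96%, 5.39% and 7.54% lower. Calr, the lectin chaperone calreticulin, differed by 3.79, 4.69 and 3.61 in the same order, and P4hb, a protein disulfide isomerase, by 3.09, 3.19 and 5.27. Both were thus higher in the hepatocyte-like cells, where Hspa5 was not. Among cells 5 to 13 the list had 9 higher and 2 lower, where 18.1% and 9.65% of all genes were. Among cells 29 to 37 it had 11 and 2, where 18.9% and 13% were. Serpinh1, the collagen chaperone HSP47, whose symbol falls outside the rule, differed by 8.24 in the mesothelial and fibroblast marker group and was among the genes that led it.

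Of the 14 genes of the cytosolic chaperonin and its partner prefoldin, 7 were higher in the blood marker group, 1 in the mesothelial and fibroblast marker group and 5 in the hepatocyte-like cells, where 18.3%, 12.7% and 13.4% of all genes were, and 0 were lower in any. The chaperonin subunit Cct5 was higher in all 3, by 3.40, 3.66 and 3.67, and Cct6a by 3.61 in the blood marker group, with 0.86 and -1.16 in the others. Of 9 other mitochondrial folding and protease genes 4, 2 and 2 were higher and 0 lower in the same order, against the same shares of all genes. Grpel1, the exchange factor of mitochondrial HSP70, differed by 2.41, 4.20 and 3.78 in the blood marker, mesothelial and fibroblast marker and hepatocyte-like groups, while the HSP90 of mitochondria, Trap1, differed by 2.62, -0.08 and 1.38.

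Of 3 measured regulators of the heat shock response, 2 were detected in at least 20 cells. Hsbp1, a binding protein of heat shock factor, was detected in 23 cells, 10 of them at 100 CPM, with a median of 17.0 CPM over 39 cells. Hsf2 was detected in 21 cells with a median of 1.12 CPM, and Hsf1, the main heat shock factor, in 8. Hsf1 differed by 5.63 in the blood marker group.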

How the data were processed

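RNA of 39 single cells was sequenced. Per the submitters' processing notes, the tools were Bowtie 0.12.9, eXpress 1.5.1 and edgeR, with no version of the last, and the genome build was mm9. Their order and settings are not given in the sources used here. The deposited values are on a log2 scale, inferred from the values, with a shared minimum of -2.58. That minimum, 0.167 on the linear scale, was taken as 0 reads and subtracted after back-transformation, and the result is called CPM. Transcripts were summed per symbol (13568 transcripts, 66 of them for the 50 members).

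The members, lists and markers were chosen with earlier results of these data known. Members were named for the 12 highest means, the 10 largest SDs, the stress-inducible list, the fewest cells, or the 8 largest called differences, and others after their values were seen. Of each partner list the 2 genes with the highest medians were named, and others after their values were seen. The list of ubiquitin and stress genes is not reported here. The analysis plan allowed for counts or CPM. Because the file holds log2 values, the CPM form of the plan was used and no count model was fitted.

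Cells were grouped on log2(CPM + 1) of 112 of 163 listed markers, with Ward linkage of 10 principal components, tried for 2 to 6 clusters. The silhouette was highest for 2 clusters (0.477, 6 and 33 cells). The 4 clusters of the same tree (0.456), which the planned comparisons need, were used, a choice made after seeing the data. No doublet caller was run and no cell was left out. Copies of a gene can divide reads, so stretches of 50 bases shared between GENCODE transcripts were counted. Differences of means were checked on simulated data. Python 3.11.15, numpy 2.4.6, pandas 2.3.3, scipy 1.17.1 and scikit-learn 1.9.0 were used.

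No molecular identifiers are described, so reads may be copies of 1 molecule, and a gene listed at 0 may be present but missed. Ratios between genes are per kb of the longest listed transcript where so stated. Ranks, sums and shares of members within a cell are in CPM, which favours long transcripts. Alternatives covered the detection threshold, the pseudocount, a filter on low values, rescaling, the choice of transcript, each cell left out, medians, and another linkage. Comparison with all other cells and restriction to cells with neighbouring numbers were added after seeing the data.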

Additional observations from a re-analysis of the deposited data

How the results depend on the processing

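Alternatives moved both counts of members and values of single members. With any value above 0 taken as detection, 25 members were found in at least 20 cells and a median of 27 per cell, and at 100 CPM these were 6 and 9, where 10 and 18 were found at 1 CPM. Members called in the hepatocyte-like cells numbered 15 higher and 4 lower with a pseudocount of 0.1, 2 higher with a pseudocount of 10, 5 higher against all other cells, and 1 lower under either rescaling. In the mesothelial and fibroblast marker group they were 14 higher and 1 lower with a pseudocount of 0.1, 4 higher with 10, 1 lower when rescaled without Rn45s, Lars2 and Rorb and 1 lower with average linkage, and 7 lower among cells 5 to 13. In the blood marker group they were 7 higher with a pseudocount of 10, 4 lower with 0.1, 1 lower when rescaled without those 3 genes, 2 lower against all other cells and 6 lower among cells 29 to 37. Leaving out each cell gave 6 to 9 higher and 2 to 4 lower in the hepatocyte-like cells (4 without cell 17), 7 to 10 and 0 to 2 in the mesothelial and fibroblast marker group (2 without cell 10), and 12 to 15 and 0 to 2 in the blood marker group (2 without cell 36). Shares of all genes called under the pseudocounts, rescalings, other linkage and left-out cells are not given here. Nothing is thus read from these counts as particular to the members. Why the counts moved was not tested. Of the alternative values for differences of single members 253 kept their direction and side of the 4-fold mark. Another 36 fell under it, and 0 reversed. Some settings in this tally could not move a value, so it does not measure how firm the calls are. The filter on low values, 21 of the 253, leaves a gene's difference unchanged. The choice of transcript cannot alter a member with 1 transcript. The tally left out Dnajc3, Hspa5, Dnajc19, Hspa9 and Dnajc7 in the blood marker group. Of these, Dnajc19, Hspa9 and Dnajc7 differed by 1.61, 1.60 and 0.63 with a single cell left out, under the mark. With average linkage the closest cluster of both the blood marker and the duct-like cells was 1 cluster of 19 cells, which held 2 of the 4 and 17 of the 22, so that comparison could not be run and rests on the Ward groups. The same linkage kept 6 of 6 hepatocyte-like cells together and 5 of 7 of the mesothelial and fibroblast marker group. No paired analysis was possible because the labels give 1 group with no replicate numbers shared between groups. In the 37 cells of known depth 1 CPM stood for 3.67 to 41.5 reads, and a level under 1 CPM was not read as absence.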
